A study of Arabidopsis thaliana with 9 samples.

Results

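The proteasome lid gene AT1G75990 and its relatives in the 19S regulatory particle were measured in rosette leaves of Arabidopsis thaliana (Columbia background) in which the DEVIL-family gene DVL4 was switched on. The genes were chosen as the probe set annotated to AT1G75990, together with any probe set annotated to a single gene whose symbol is RPN or RPT followed by a number. The rule found 2 genes, AT1G75990 and RPN12a (AT1G64520), of 13356 genes that had a probe set annotated to 1 gene alone. AT1G75990 was chosen by its intensity in these same arrays, on which it was high in DVL4 dex leaves, so its own differences are given as a description without a test. RPN12a came in by its symbol, and its changes were tested.

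The 26S proteasome degrades proteins tagged with ubiquitin. Its 20S core particle holds the protease sites, and its 19S regulatory particle, made of a lid and a base, recognises the tagged protein, removes the ubiquitin and feeds the chain into the core. RPN3 is a scaffold subunit of the lid, and RPN12 is another lid subunit. In Arabidopsis most subunits are encoded by a pair of genes, and subunit genes are known to rise together when proteasome capacity is short.

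The comparison was of 3 groups of 3 Affymetrix ATH1 arrays, and all plants carried the GVG construct, in which dexamethasone activates whatever coding sequence has been inserted. The DVL4 dex group was the line carrying the DVL4 coding sequence, treated with 30 µM dexamethasone in water. The EV dex group was the empty vector line, which carries no inserted sequence, given the same treatment. The DVL4 mock group was the DVL4 line given a mock treatment. Each array held RNA of the largest rosette leaf of 20 plants, grown at 22 °C in 16 h days to the 6-leaf vegetative stage and harvested 10 h after treatment, pooled as 1 biological replicate. The construct's activator is not restricted to a leaf cell type in the labels, the number of independent lines behind each construct is not given in the sources used here, and no mock-treated empty vector group was analysed here. A comparison of DVL4 dex with DVL4 mock therefore differs in dexamethasone as well as in DVL4, and a comparison of DVL4 dex with EV dex differs in the plant line. Both comparisons share the DVL4 dex arrays.

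The values were intensities on a linear scale, with array medians of 75.4 to 84.1. On 3 arrays, DVL4 dex 1, DVL4 dex 2 and EV dex 1, the 5′ to 3′ intensity ratio of the control transcript dap was 0.228 to 0.278, against 0.601 to 1.33 on the other 6 arrays. These 3 are called low-5′ arrays here, and no DVL4 mock array was among them, so results are also given without them. Of the leaf markers, 3 of 8 were measured (LHCB4.1, PRK and RCA), and they summed to 25931 to 28291 in DVL4 dex, 26380 to 28751 in EV dex and 28034 to 30421 in DVL4 mock. Of the root markers, 3 of 6 were measured and summed to 79.1 to 113 in DVL4 dex, 66.7 to 112 in EV dex and 69.5 to 100.3 in DVL4 mock. Of these 3, EXPA7 rose in DVL4 dex against DVL4 mock by a log2 change of 1.03 (limma adjusted p = 0.0326), a call lost in 9 of 20 alternatives, with the change at 0.53 under a floor at the 25th percentile. All EV dex arrays also lay above all DVL4 mock arrays for EXPA7, at a log2 change of 0.75 that did not pass (limma adjusted p = 0.181), and its part in the results was not tested. Only AGL66 of the 5 pollen and flower markers was measured, at 4.25 to 19.1 over all arrays. No marker was at 0. In whole leaves, fewer cells of a type and less RNA per cell cannot be told apart. DVL4 itself had no probe set named to it alone in the gene table, so the switch was not checked on its own transcript.

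AT1G75990 stood far above both control groups on every DVL4 dex array. Its intensity was 1088, 1006 and 911 on the 3 DVL4 dex arrays, against 138, 101 and 131 on the EV dex arrays and 112, 122 and 114 on the DVL4 mock arrays. The lowest DVL4 dex array lay 6.59 times above the highest of the 6 control arrays, and the 2 control groups overlapped. Mean intensity was 1002 ± 88.5 in DVL4 dex, 124 ± 19.7 in EV dex and 116 ± 5.58 in DVL4 mock (SD, n = 3 each).

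On the log2 scale AT1G75990 was 3.11 ± 0.13 (SE) higher in DVL4 dex than in DVL4 mock, which is 8.62-fold. Against EV dex the log2 difference was 3.03 ± 0.13, or 8.16-fold. EV dex was 0.08 ± 0.13 higher than DVL4 mock, a difference smaller than its standard error. By size of positive change the gene was number 5 of 22746 probe sets against EV dex and number 59 against DVL4 mock. Without the low-5′ arrays the difference was 7.86-fold against DVL4 mock and 7.92-fold against EV dex. Within the low-5′ arrays alone it was 7.56-fold against EV dex.

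RPN12a, the other gene found by its symbol, moved far less. Its intensity was 846, 878 and 750.3 in DVL4 dex, 714, 703 and 775 in EV dex, and 691, 655 and 711 in DVL4 mock. All DVL4 dex arrays were above all DVL4 mock arrays, while DVL4 dex and EV dex overlapped through DVL4 dex 3. RPN12a rose against DVL4 mock by a log2 change of 0.26 ± 0.08 (1.20-fold, limma adjusted p = 0.0434), in a comparison in which 12.8% of all probe sets passed as higher. This call was lost in 12 of the 21 alternative settings, and without the low-5′ arrays the log2 change was 0.13. Against EV dex RPN12a was 0.17 ± 0.08 higher on the log2 scale and did not pass (limma adjusted p = 0.244), where 4.63% of all probe sets passed as higher. EV dex against DVL4 mock gave a log2 change of 0.09 (limma adjusted p = 0.59), where 4.15% passed as higher.

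**Figure D1:**
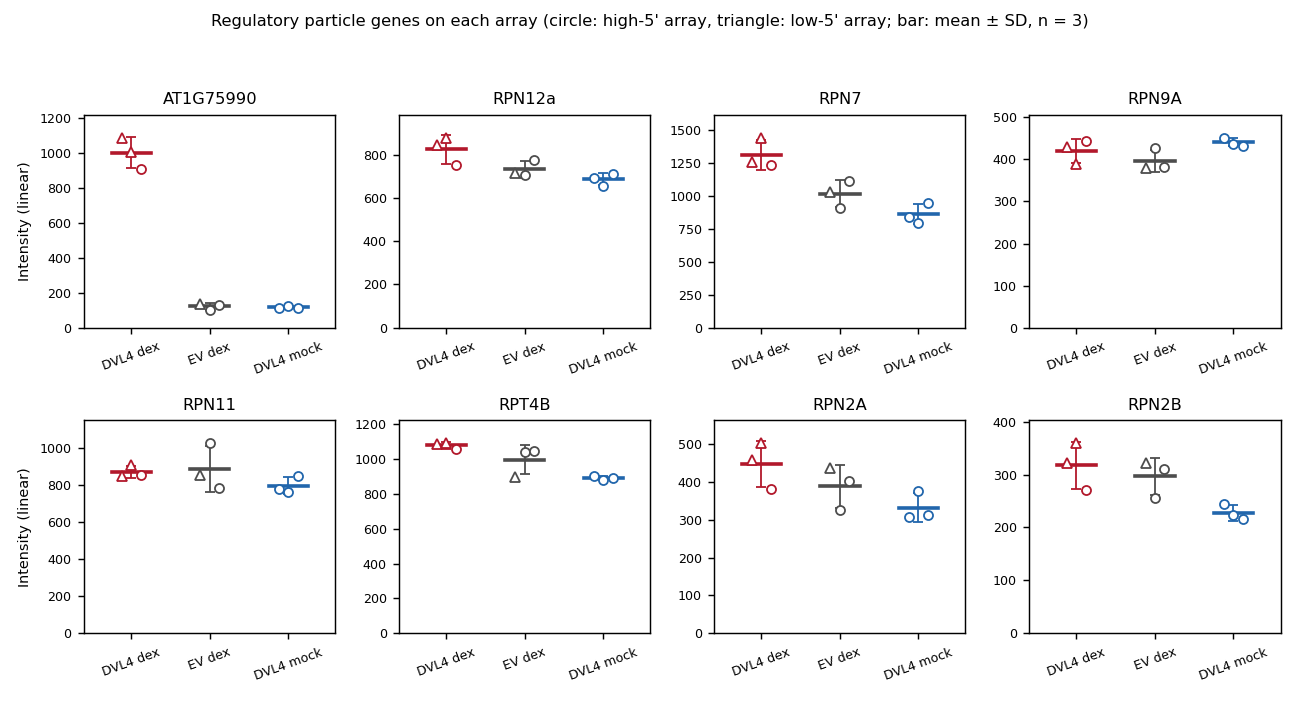
Intensity on a linear scale of AT1G75990 and the 7 other measured regulatory particle genes, 1 panel a gene, for DVL4 dex, EV dex and DVL4 mock. Points are arrays (triangles are low-5′ arrays), thick bars are means and error bars are SD (n = 3 each). AT1G75990 lies at 911 to 1088 in DVL4 dex and at 101 to 138 in the controls, while the groups of the other genes lie close to each other.

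To set these genes beside the rest of the regulatory particle, a list of its subunit loci was used. Of 32 loci, 8 had a probe set annotated to a single gene, AT1G75990 and 7 others. Apart from RPN12a the gene table gives these others by locus alone, and the subunit names used here are those in general use for the loci. The second RPN3 gene, AT1G20200 (EMB2719 in RefSeq), had no such probe set, and whether the AT1G75990 probes also bind its transcript was not tested.

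Against DVL4 mock, 4 of the 7 other genes rose, none fell and 3 did not pass limma's test, where 12.8% of all probe sets passed as higher and 10.9% as lower (23.7% in either direction). Their median log2 change was 0.28, against 0.01 over all probe sets. The 4 were 2 lid genes, RPN7 and RPN12a, and 2 base genes, RPT4B and RPN2B, with changes of 1.20-fold to 1.53-fold. The largest upper 95% limit of the 7 was 1.79-fold, far under the 8.62-fold difference of AT1G75990. In 6 of the 7 all DVL4 dex arrays lay above all DVL4 mock arrays, as they did in 23% of all probe sets. With probe sets under the median intensity left out, 5 of the 7 rose, where 2842 of 11368 probe sets passed as higher. Without the low-5′ arrays, which leaves 1 DVL4 dex array, all 7 log2 differences were above 0, with a median of 0.21.

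Against EV dex, 1 of the 7, RPN7, rose and 6 did not pass, where 4.63% of all probe sets passed as higher and 5.55% as lower (10.2% in either direction). The median log2 change was 0.12, against 0 over all probe sets. Without the low-5′ arrays, which leaves 1 DVL4 dex array, this median was 0.02, and 5 of the 7 were above 0. The largest upper 95% limit was 1.52-fold, beside 8.16-fold for AT1G75990. In 2 of the 7, RPN7 and RPT4B, all DVL4 dex arrays lay above all EV dex arrays, as they did in 12% of all probe sets. With probe sets under the median intensity left out, 1 of the 7 rose, where 1192 of 11368 probe sets passed as higher. Leaving out any single array left 0 of 7 called, where 4.37% to 9.93% of all probe sets passed in either direction.

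EV dex against DVL4 mock gave 0 of 7 calls by limma, with 2 of 7 under an unadjusted p of 0.05, where 6.21% of all probe sets passed in either direction, 4.15% as higher and 2.06% as lower. The median log2 change was 0.16, against 0.02 over all probe sets, and 6 of the 7 were above 0. The medians therefore placed EV dex between DVL4 dex and DVL4 mock for these genes, whereas AT1G75990 differed by 0.08 between EV dex and DVL4 mock.

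Among the lid genes, RPN7 (AT4G24820, a lid scaffold subunit) showed the largest change after AT1G75990. It had 1261, 1443 and 1237 in DVL4 dex, 1030.5, 907 and 1113 in EV dex, and 841, 797 and 945 in DVL4 mock. The DVL4 dex arrays were above all control arrays, and the control groups overlapped. RPN7 rose by a log2 change of 0.61 ± 0.10 against DVL4 mock (1.53-fold, limma adjusted p = 0.00239) and of 0.37 ± 0.10 against EV dex (1.29-fold, limma adjusted p = 0.0496). The call against DVL4 mock was lost in 1 of 21 alternatives, the fit without the low-5′ arrays (1.44-fold), and the call against EV dex in 16 of 21.

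The remaining lid genes did not pass in any comparison. RPN11 (AT5G23540), the metalloprotease that removes ubiquitin from substrates, had 849, 912 and 857 in DVL4 dex, 858, 1028 and 786 in EV dex, and 781, 763 and 849 in DVL4 mock. Its lowest DVL4 dex array lay at the level of its highest DVL4 mock array, and its log2 changes were 0.13 against DVL4 mock and -0.02 against EV dex. RPN9A (AT5G45620), a lid subunit, had 429, 388 and 444 in DVL4 dex, 380, 427 and 382 in EV dex, and 452, 438 and 433 in DVL4 mock. Its groups overlapped in both DVL4 dex comparisons, with log2 changes of -0.07 against DVL4 mock and 0.09 against EV dex.

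In the base, 1 ATPase gene and 2 non-ATPase genes were measured. RPT4B (AT1G45000) encodes a subunit of the ATPase ring that unfolds substrates. It had 1089, 1091 and 1058 in DVL4 dex, 899, 1038 and 1049 in EV dex, and 903, 880.3 and 890.2 in DVL4 mock. The DVL4 dex arrays were above every control array, and 1 EV dex array, the low-5′ array EV dex 1, lay inside the mock range. RPT4B rose by 0.28 ± 0.07 (log2) against DVL4 mock (1.21-fold, limma adjusted p = 0.0244), a call lost in 8 of 21 alternatives, and its 0.12 against EV dex did not pass.

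RPN2A and RPN2B (AT2G32730 and AT1G04810) are the gene pair for RPN2, the base's large scaffold subunit. RPN2A had 459, 503 and 383 in DVL4 dex, 437, 326 and 402 in EV dex, and 307, 377 and 313 in DVL4 mock. RPN2B had 322, 359 and 270.4 in DVL4 dex, 322, 256 and 311 in EV dex, and 244, 223 and 216 in DVL4 mock. In both genes the DVL4 dex and EV dex arrays overlapped, and all DVL4 dex arrays were above all DVL4 mock arrays. RPN2B rose against DVL4 mock by a log2 change of 0.47 ± 0.13 (1.39-fold, limma adjusted p = 0.026), a call lost in 7 of 21 alternatives, and RPN2A's change of 0.43 ± 0.14 did not pass (limma adjusted p = 0.0554) but did in 8 of 21 alternatives. Neither passed against EV dex, at 0.10 for RPN2B and 0.21 for RPN2A. In both genes the DVL4 dex array outside the low-5′ set was the lowest of its group.

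**Figure D2:**
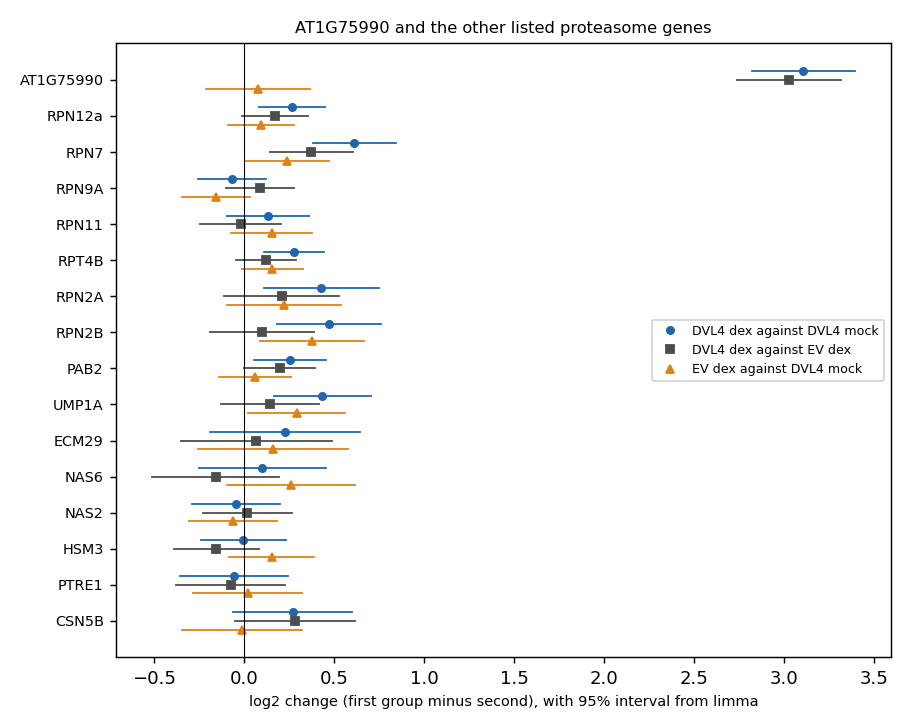
Log2 change with its 95% interval from limma for AT1G75990 and the 15 other measured proteasome genes, for DVL4 dex against DVL4 mock, DVL4 dex against EV dex and EV dex against DVL4 mock. AT1G75990 lies at 3.11 and 3.03 in the DVL4 dex comparisons and at 0.08 between the controls, while every other point lies between -0.16 and 0.61.

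The gap between AT1G75990 and its relatives was also read array by array. Each gene was set to its own mean over the 9 arrays on the log2 scale, and the mean of the 7 others was subtracted from AT1G75990. The result was 2.01, 1.83 and 1.85 in DVL4 dex, -0.82, -1.22 and -0.92 in EV dex, and -0.97, -0.82 and -0.94 in DVL4 mock. The DVL4 dex arrays stood apart from all control arrays, and the control groups overlapped. DVL4 dex minus the mean of the control arrays was 2.84, and 2.79 to 2.88 over the 14 alternatives that give this value. The mean of the 7 others, on the same scale, was 0.16, 0.23 and 0.06 in DVL4 dex, 0.01, -0.04 and 0.03 in EV dex, and -0.15, -0.17 and -0.14 in DVL4 mock. Those 3 groups did not overlap, over a range that is small beside that of AT1G75990. The margin between DVL4 dex and EV dex was thin, at 0.06 on DVL4 dex 3 against 0.03 on EV dex 3. The higher DVL4 dex values, 0.16 and 0.23, were both on low-5′ arrays.

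**Figure D3:**
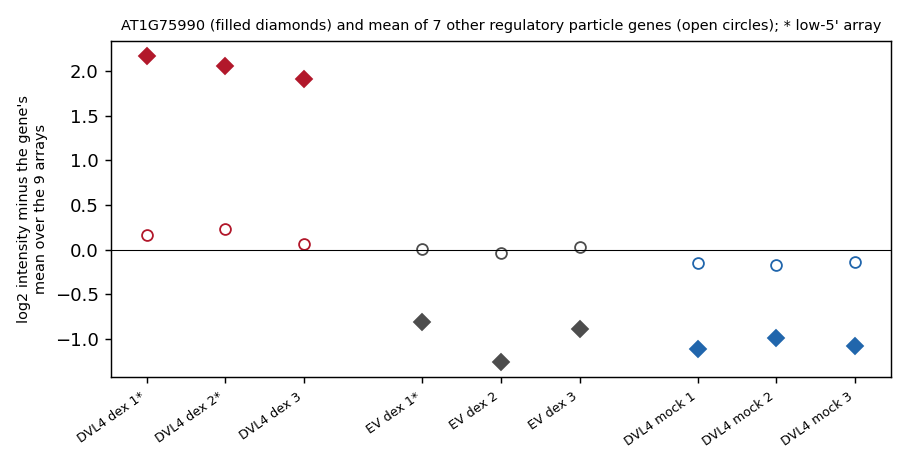
Log2 intensity minus the gene's mean over the 9 arrays, by array, for AT1G75990 (filled diamonds) and for the mean of the 7 other regulatory particle genes (open circles); stars mark low-5′ arrays. AT1G75990 lies near 2 in DVL4 dex and near -1 in the controls, while the mean of the others lies between -0.17 and 0.23.

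Beyond the regulatory particle, 8 listed proteasome-related genes were measured: 1 of 24 core particle genes, 6 of 12 activator, assembly and regulator genes, and 1 of 10 COP9 signalosome genes. With the 7 regulatory particle genes this made 15, of which 5 rose against DVL4 mock, 1 against EV dex and 0 in EV dex against DVL4 mock (limma; 3 of the 15 under an unadjusted p of 0.05 in the last). None fell. Over all probe sets 12.8%, 4.63% and 4.15% passed as higher in the same comparisons, so the 1 of 15 against EV dex was near the background. The median log2 change of the 15 was 0.25 against DVL4 mock, beside 0.01 over all probe sets, and 0.10 against EV dex, beside 0. The count against EV dex was 0 in 15 of 21 alternatives, and that against DVL4 mock was 1 to 7 with 1 array left out.

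The fifth gene that rose against DVL4 mock was UMP1A (AT1G67250), the counterpart of a yeast factor that helps the core particle mature. It had 1213, 1315 and 922 in DVL4 dex, 1074, 1018 and 1000.1 in EV dex, and 801, 830 and 898 in DVL4 mock. DVL4 dex and EV dex overlapped, and both lay above DVL4 mock. The log2 change was 0.43 ± 0.12 against DVL4 mock (limma adjusted p = 0.0279), lost in 10 of 21 alternatives, and 0.14 against EV dex (limma adjusted p = 0.541).

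PAB2 (AT1G79210), a structural alpha subunit of the core, had 832, 830.4 and 923 in DVL4 dex, 664, 796 and 803 in EV dex, and 731, 712 and 722 in DVL4 mock. All DVL4 dex arrays were above all control arrays, but its log2 changes of 0.25 against DVL4 mock (limma adjusted p = 0.0665) and 0.20 against EV dex (limma adjusted p = 0.218) did not pass. CSN5B, a subunit of the COP9 signalosome that removes NEDD8 from cullins, changed by 0.27 and 0.28 in the same comparisons on the log2 scale and did not pass either. ECM29, NAS6, HSM3 and PTRE1, which are proteasome adaptor, base assembly and regulator genes, lay between -0.16 and 0.23 in these comparisons and did not pass.

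None of the measured genes next to AT1G75990 on chromosome 1 rose in DVL4 dex. Of the 5 annotated genes on each side in RefSeq (TAIR10.1), 4 had a probe set named to them alone. The adjacent gene, AT1G75980, whose annotated interval overlaps that of AT1G75990, had 126, 132 and 125 in DVL4 dex, 133, 120.4 and 142 in EV dex, and 135, 132 and 129 in DVL4 mock. All 3 groups overlapped, with a log2 change of -0.05 in both DVL4 dex comparisons. AT1G76010 and AT1G76020 did not pass in any comparison.

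AT1G75960, the remaining neighbour, was dim and lower in both dexamethasone groups. It had 13.7, 30.2 and 12.8 in DVL4 dex, 15.5, 18.0 and 18.2 in EV dex, and 41.9, 45.7 and 40.7 in DVL4 mock. It fell by 1.29 ± 0.31 on the log2 scale in DVL4 dex against DVL4 mock (limma adjusted p = 0.015) and by 1.31 ± 0.31 in EV dex against DVL4 mock (limma adjusted p = 0.0392). DVL4 dex and EV dex overlapped, with a log2 change of 0.02. The call in EV dex was lost in 9 of 20 alternatives, and that in DVL4 dex in 2 of 20.

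The 6 genes whose pattern was most like that of AT1G75990 were ranked by Pearson's r over the 9 arrays on the log2 scale, among 6414 single-gene probe sets whose brightest group mean was above the median. They were AT1G07040 (r = 0.989), AT1G72820 (0.987), AT4G18820 (0.986), AT1G12120 (0.986), AT5G50915 (0.982) and AT1G43580 (0.981). None was a listed proteasome gene, but at most 15 such genes were among the 6414, so little can be read from that. The arrays fall into DVL4 dex and the rest, so r describes that split and has no test here. Their folds in DVL4 dex were smaller than that of AT1G75990, at 1.33-fold to 2.76-fold against DVL4 mock and 1.29-fold to 3.08-fold against EV dex.

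AT1G07040, the closest in pattern, had a mean intensity of 618 ± 32.3 in DVL4 dex, 276 ± 4.66 in EV dex and 258 ± 19.7 in DVL4 mock (SD, n = 3 each). AT5G50915 had the largest folds of the 6, with 1356 ± 131 in DVL4 dex, 439 ± 7.53 in EV dex and 489.9 ± 3.99 in DVL4 mock. In all 6 genes the DVL4 dex arrays lay above all control arrays, which follows from their choice by likeness to AT1G75990 on these arrays.

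**Figure D4:**
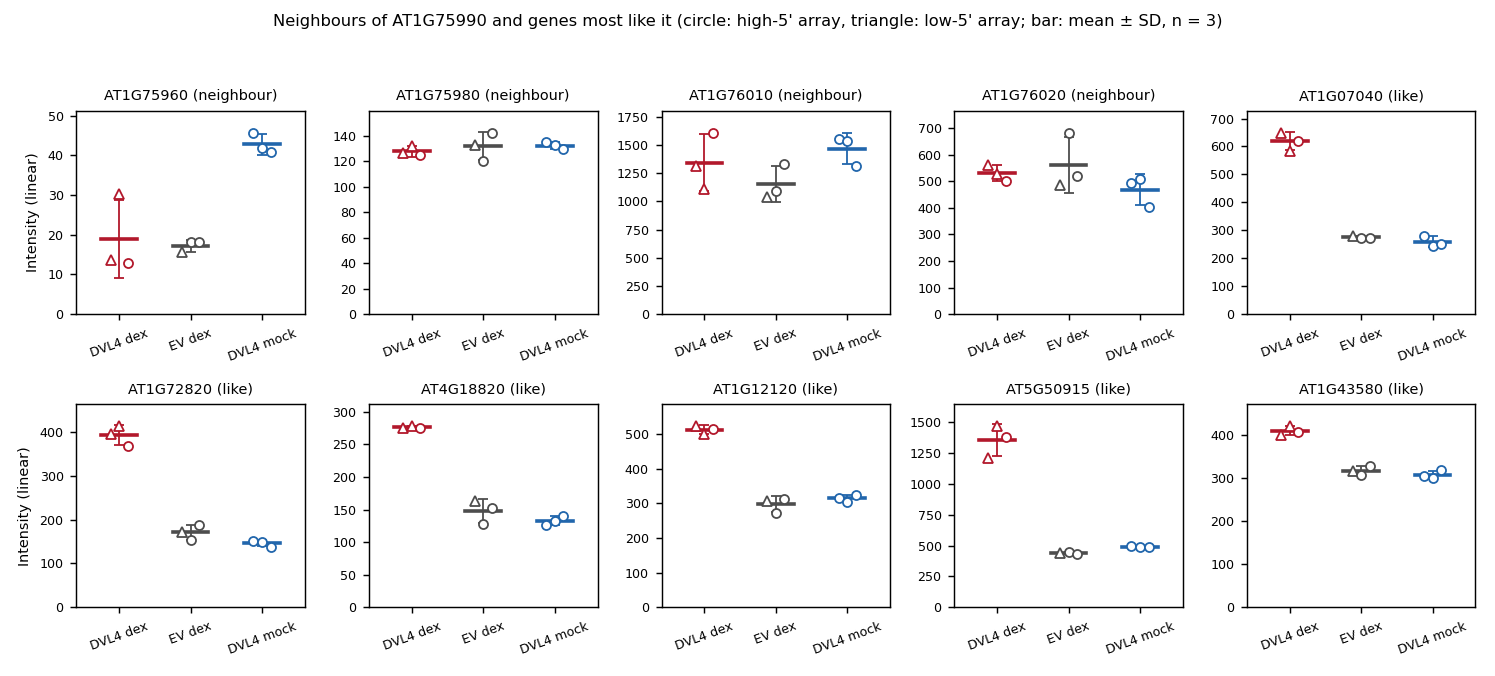
Intensity on a linear scale of the 4 measured neighbours of AT1G75990 and of the 6 genes most like it, 1 panel a gene, for DVL4 dex, EV dex and DVL4 mock. Points are arrays (triangles are low-5′ arrays), thick bars are means and error bars are SD (n = 3 each). AT1G75960 is lower in both dexamethasone groups than in DVL4 mock. The 6 like genes, chosen by likeness to AT1G75990 on these arrays, are higher in DVL4 dex than in both controls.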

How the data were processed

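The authors deposited dChip intensities on a linear scale, 1 value per probe set and array, per the labels; its version, model and scaling were not stated there. Of 22810 probe sets, 64 controls were left out and 22746 tested. Probe sets were named from the platform's gene table: 13513 had 1 gene, 503 several and 8730 none. A floor was set at the 5th percentile of all deposited intensities together (4.92), which replaced 1090 to 1275 values per array and none of AT1G75990. Log2 values of all 9 arrays entered 1 limma fit (limma 3.58.1, R 4.3.3; lmFit, eBayes with trend) with group as the only term, 2-sided, with Benjamini-Hochberg adjustment over all probe sets and a threshold of 0.05. The script was tested on simulated data. With 3 arrays per group, their number limits the precision. Arrays with a dap 5′ to 3′ ratio under 0.5 were called low-5′.

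The genes and lists were chosen with earlier results of these data known. Named were the genes of the rule, up to 4 listed genes per list and comparison with the smallest p, the 6 most like AT1G75990, and its measured neighbours. Ubiquitin families were added by symbol after the gene table was read. Figures were drawn with matplotlib 3.10.9.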

Additional observations from a re-analysis of the deposited data

How the results depend on the processing

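AT1G75990 kept its direction in all 21 alternatives. Its log2 change was 2.95 to 3.19 against DVL4 mock and 2.89 to 3.12 against EV dex. The calls among its relatives did not hold as well, and the causes were not tested beyond what follows from fewer arrays. A fit without the low-5′ arrays leaves 1 DVL4 dex array assumed to vary like the other groups, so its counts are not listed here. Against DVL4 mock, 4 other regulatory particle genes were called. The count became 2 under quantile normalization, 1 with eBayes without a trend and 2 with the low-5′ arrays as a covariate. All these calls were higher in DVL4 dex. Of all 22746 probe sets, 2666, 2474 and 2122 passed as higher under these settings, against 2913 in the main fit. In either direction 24%, 20.3% and 17.6% passed, against 23.7% in the main fit. The 15 listed genes gave 5 calls, and 3, 1 and 3 under the same settings. The 1 call for RPN12a became 0 under those settings, and also with no floor, with robust eBayes and with the replicate block. Its log2 change without the low-5′ arrays was 0.13 against DVL4 mock and 0.023 against EV dex.

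Without the low-5′ arrays, the log2 change of RPN7 against EV dex was 0.30. Against EV dex, the single regulatory particle call (RPN7) became 0 with the floor at the 25th percentile, array weights, or eBayes without a trend. It also became 0 with only the groups compared in the fit, the replicate block or the low-5′ covariate. The count over the 15 listed genes became 0 under the same settings except the covariate, where PAB2 passed in place of RPN7 and it stayed at 1.

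Leaving out 1 array at a time gave 1 to 5 regulatory particle calls against DVL4 mock (1 without DVL4 dex 1 or 2 or DVL4 mock 2 or 3, and 2 without DVL4 mock 1) and 0 to 0 against EV dex. The 15 listed genes gave 1 to 7 calls against DVL4 mock, 0 to 0 against EV dex and 0 to 1 in EV dex against DVL4 mock. RPN12a gave 0 to 1 against DVL4 mock. Same-numbered arrays did not deviate together (correlations of -0.333 to 0.327 over 9 pairs), so the numbers were not taken as pairs; the replicate block gave 3 regulatory particle calls against DVL4 mock and 0 against EV dex.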

Other observations

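Of the ubiquitin-system genes named by symbol, 12 UBP genes (deubiquitinating enzymes) and 9 PUB genes (U-box ubiquitin ligases) were measured. Of the UBP genes, 1 rose and 1 fell in DVL4 dex against DVL4 mock, and 1 fell against EV dex (limma). Of the PUB genes, 2 rose in DVL4 dex against DVL4 mock, 2 fell against EV dex, and 1 rose and 1 fell in EV dex against DVL4 mock (limma). The fall of PUB19 against EV dex (limma adjusted p = 0.0494) was lost in 15 of 20 alternatives. The fall of PUB23 in EV dex against DVL4 mock (limma adjusted p = 0.0493) was lost in 16 of 20. The rises against DVL4 mock were lost in 3 of 20 alternatives for PUB25 and 8 of 21 for PUB49. Over all probe sets, 23.7% passed in either direction against DVL4 mock, 10.2% against EV dex and 6.21% in EV dex against DVL4 mock. These families were picked after the gene table was read.

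PUB24, a ligase known from plant immunity, averaged 33.0 ± 7.10 in DVL4 dex, 81.5 ± 5.65 in EV dex and 39.2 ± 9.68 in DVL4 mock (SD, n = 3 each). It fell by 1.32 on the log2 scale in DVL4 dex against EV dex (limma adjusted p = 0.0066, lost in 1 of 20 alternatives) and rose by 1.08 in EV dex against DVL4 mock (limma adjusted p = 0.0229, lost in 5 of 20). UBP21 averaged 32.8 ± 9.28 in DVL4 dex, 57.9 ± 6.34 in EV dex and 60.1 ± 5.70 in DVL4 mock. It fell by 0.91 against DVL4 mock (limma adjusted p = 0.0168) and by 0.85 against EV dex (limma adjusted p = 0.0421), the second call lost in 14 of 20 alternatives.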
